A study of Mus musculus with 15 samples.

Results

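POU-domain transcription factors were followed across sorted embryonic mouse thalamic cells at 2 stages. The family was represented by 9 named genes: Pou2f1, Pou2f2, Pou3f1, Pou3f2, Pou3f3, Pou3f4, Pou4f1, Pou4f2 and Pou6f1. Of these, 7 had a transcript cluster, the array's unit of measurement, that was annotated to that gene alone, among 22180 genes in all. Each of the 7 had 1 such cluster, and all 7 passed the filter on low signals that left 16635 genes for testing. Pou2f1 and Pou4f2 had no cluster annotated to them alone and were not analysed here.

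The 15 arrays measured RNA from embryos on a C57BL/6 background with the genotype Gbx2CreER-IRES-EGFP/+::R26lsl-tdTomato/+, which all groups shared. Gbx2 is a homeodomain factor of thalamic neurons, so EGFP (green) reported cells with an active Gbx2 locus. The tdTomato reporter (red) marked descendants of cells in which CreER, driven by the same locus, was active after tamoxifen. Dams of the E18.5 embryos were given 4 mg tamoxifen at E9 and dams of the E14.5 embryos the same dose at E9.5, so the tamoxifen day and the stage cannot be told apart. From the thalamus, red and green cells were collected at both stages and cells with both colours (double-labelled) at E18.5 only. Each of the resulting 5 groups had 3 biological replicates. The sorting gates are not given in the sources used here.

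POU factors bind DNA through a POU-specific domain joined to a homeodomain, and many recognise an octamer element. Class III members (Pou3f1 to Pou3f4, known as Oct6, Brn2, Brn1 and Brn4) are made in neural progenitors and young neurons and act with Sox factors on neural enhancers. Pou2f2 (Oct2, class II) is best known from B lymphocytes and is also made in subsets of developing neurons. Pou4f1 (Brn3a, class IV) directs the differentiation of sensory neurons and of the habenula, which adjoins the thalamus, and Pou6f1 (Brn5, class VI) is expressed in maturing neurons.

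All values below are log2 signals as the authors deposited them. Fold changes and tests come from limma on all 15 arrays, with p adjusted over the 16635 genes and a threshold of 0.05. The mean of all values was 6.17 to 6.19 in the E18.5 arrays and 5.63 to 5.65 in the E14.5 arrays, so a difference between stages carries this shift, which had a median of 0.60 in red and 0.61 in green cells. Of the E18.5 arrays, red replicate 1 and double-labelled replicate 1 stood apart. Their values had an SD of 1.31 to 1.34, against 1.44 to 1.51 in the other 7, and their mean correlation with the arrays of their own group was 0.919 to 0.920, against 0.944 to 0.985. Gbx2 itself was lower in red than in green cells, by 0.77 at E14.5 (adjusted p = 0.0113) and by 2.07 at E18.5 (adjusted p = 0.0149). Thalamus markers had a summed level (log2 of the summed linear signals of 10 genes) of 12.6 to 13.4 across all arrays. This level was lower in red than in green arrays at both stages, without overlap. Its mean was 12.65 in red and 12.82 in green arrays at E14.5. At E18.5 it was 12.85 in red, 13.12 in double-labelled and 13.34 in green arrays. Of the 10 genes, 2 passed as lower in red at E18.5 and 0 as higher. They were Gbx2 and Lhx9 (difference of -0.99, adjusted p = 0.024).

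Pou3f2, Pou3f3 and Pou3f4 were higher in green cells at E14.5 than in any other group. Pou3f2 and Pou3f3 were not low elsewhere. In E14.5 red cells their means lay above those of 80.3% and 80.0% of all genes. For Pou3f2 the E14.5 green arrays read 8.64, 8.93 and 8.80, and the E14.5 red arrays read 6.96, 6.65 and 7.14. At E18.5 it read 6.58, 6.88 and 7.07 in green, 6.77, 7.11 and 6.81 in double-labelled and 7.64, 7.30 and 6.92 in red arrays. The 3 E14.5 green arrays were thus the highest of all 15, and the other 4 groups overlapped. At E14.5 Pou3f2 fell from green to red cells by 1.87 (SE 0.13, adjusted p = 6.8e-07), which is 3.67-fold lower in red.

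Pou3f4 had the same shape. It read 6.96, 7.33 and 6.94 in E14.5 green arrays and 5.51, 5.54 and 5.86 in E14.5 red arrays. The 9 E18.5 arrays lay between 5.43 and 5.85, inside the range of E14.5 red apart from their lowest value. The difference between E14.5 red and green cells was -1.44 (SE 0.11, adjusted p = 1.6e-06), or 2.71-fold lower in red. In 4 of the E18.5 arrays Pou3f4 had the identical value of 5.69. Of the 16635 genes, 43.6% had a value that recurred among the E18.5 arrays, against 0.932% among the E14.5 arrays, so some small spreads at E18.5 include repeated values.

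Pou3f3 read 7.80, 7.84 and 7.90 in E14.5 green arrays, with no overlap with the E14.5 red arrays at 6.99, 6.72 and 6.97. At E18.5 it read 6.48, 6.76 and 6.71 in green, 6.07, 6.73 and 6.79 in double-labelled and 6.98, 6.73 and 6.84 in red arrays. The lowest of these, 6.07, was double-labelled replicate 1. At E14.5 Pou3f3 fell from green to red cells by 0.95 (SE 0.11, adjusted p = 4.8e-05), a 1.93-fold difference. For each of Pou3f2, Pou3f3 and Pou3f4 the 3 E14.5 green arrays were above all 12 other arrays, a pattern shown by 1.82% of all genes.

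The fourth class III gene, Pou3f1, known from Schwann cells and upper-layer cortical neurons, was not highest in that group. Its E14.5 green arrays read 5.68, 5.89 and 6.23 and its E14.5 red arrays 5.58, 5.55 and 5.55. The groups did not overlap, but the difference of -0.37 did not pass (SE 0.14, adjusted p = 0.109). At E18.5 Pou3f1 lay between 5.87 and 6.08 in green and red arrays, and it varied from 5.53 to 6.56 among the double-labelled arrays, with replicate 1 the highest.

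**Figure D1:**
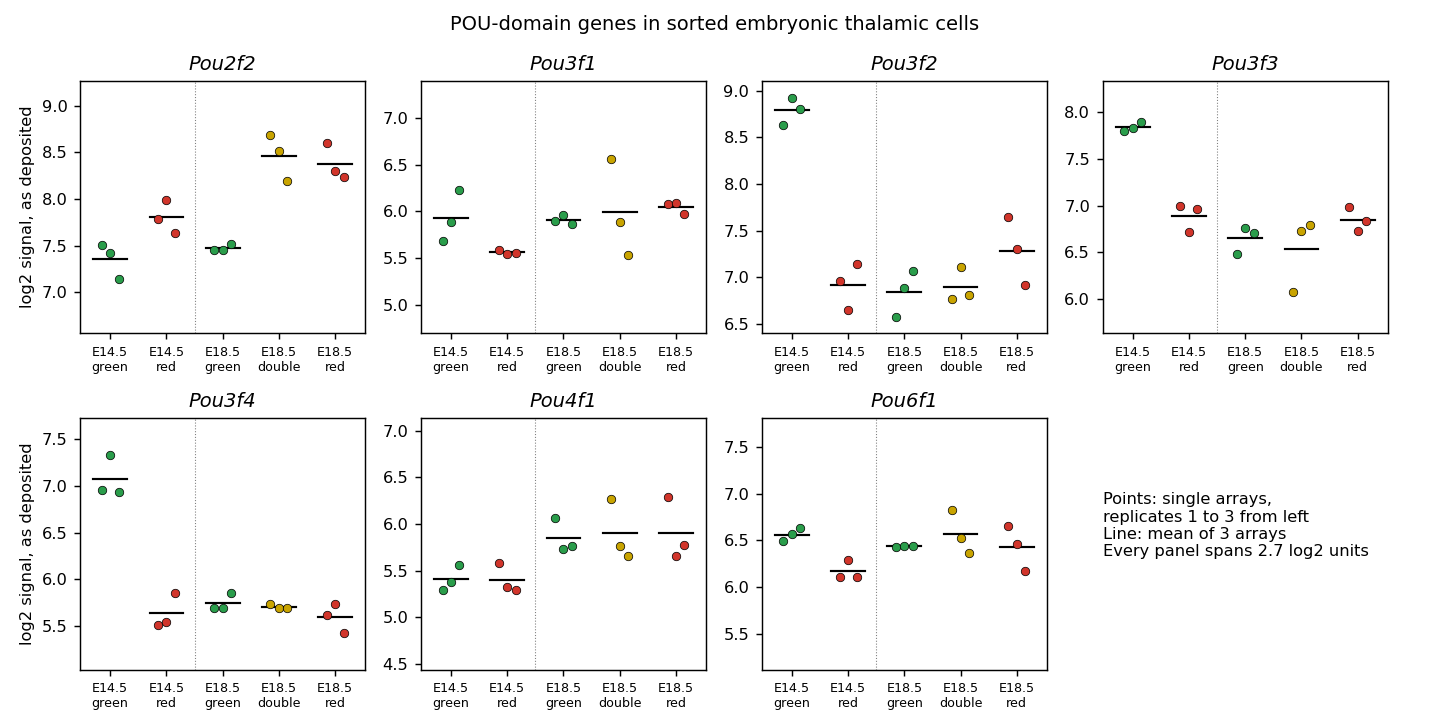
Log2 signal as deposited (vertical axis) of the 7 POU-domain genes in each of the 15 arrays, by stage and colour (horizontal axis). Points are arrays, with replicates 1 to 3 from left to right, lines are means of 3 arrays and every panel spans 2.7 log2 units. Pou3f2, Pou3f3 and Pou3f4 are highest in the 3 E14.5 green arrays, and Pou2f2 is lower in green than in the other arrays of its own stage.

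The promoter windows of the 3 class III genes that moved together are shown because they also shared a sequence element. They span the 250 bases before the RefSeq start of each gene on GRCm38.p6, at chr4:22488367-22488616 on the minus strand for Pou3f2, chr1:42695518-42695767 on the plus strand for Pou3f3 and chrX:110814129-110814378 on the plus strand for Pou3f4. Each is written 5′ to 3′ on the gene's own strand, and capitals mark the CCAAT box, searched as CCAAT on both strands, so that a match on the other strand reads ATTGG.
Pou3f2: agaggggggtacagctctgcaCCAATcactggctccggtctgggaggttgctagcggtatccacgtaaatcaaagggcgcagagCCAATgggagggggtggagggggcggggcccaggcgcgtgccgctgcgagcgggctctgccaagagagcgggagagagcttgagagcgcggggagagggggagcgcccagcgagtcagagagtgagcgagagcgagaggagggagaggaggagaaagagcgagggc
Pou3f3: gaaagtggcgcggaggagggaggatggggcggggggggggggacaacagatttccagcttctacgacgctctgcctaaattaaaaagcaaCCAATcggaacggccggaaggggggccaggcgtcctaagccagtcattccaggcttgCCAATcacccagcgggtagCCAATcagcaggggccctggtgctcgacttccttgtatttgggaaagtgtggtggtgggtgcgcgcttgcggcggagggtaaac
Pou3f4: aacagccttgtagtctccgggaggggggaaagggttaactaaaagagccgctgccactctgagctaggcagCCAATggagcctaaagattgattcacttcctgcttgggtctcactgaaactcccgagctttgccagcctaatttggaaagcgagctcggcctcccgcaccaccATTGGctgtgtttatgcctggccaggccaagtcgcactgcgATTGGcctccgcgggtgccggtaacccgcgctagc
Pou3f2 had 2 matches, 229 and 166 bases before the start. Pou3f3 had 3, at 160, 103 and 84 bases, and Pou3f4 had 3, at 179, 76 and 35 bases. Among 32851 mouse promoter windows of this length, 33.9% held at least 1 CCAAT, 10.1% at least 2 and 2.79% at least 3. The windows of Pou2f2, Pou4f1 and Pou6f1 held 0, and a window for Pou3f1 was not used here. Those windows were placed otherwise than the ones shown. That of Pou2f2 lay inside the RefSeq bounds of its gene, and those of Pou4f1 and Pou6f1 lay partly inside. Their counts thus do not come from like regions. The octamer ATGCAAAT, searched on both strands, had 0 matches in all 6 windows and at least 1 in 1.60% of all windows. The CCAAT box was chosen after the windows had been read, and a match describes the sequence only.

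Pou2f2 was lower in green than in red cells at both stages, with a test passed at E14.5 only. At E14.5 it read 7.51, 7.42 and 7.14 in green and 7.79, 7.99 and 7.64 in red arrays, with no overlap. It rose from green to red by 0.45 (SE 0.11, adjusted p = 0.0187), or 1.37-fold. This call was lost with equal weights for all arrays (adjusted p = 0.164), on the E14.5 arrays alone (0.0641), after quantile normalization (0.0784), and without red replicate 1 (0.0548), red replicate 2 (0.0824) or green replicate 3 (0.13, with a difference of 0.34).

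At E18.5 the colours lay further apart. Pou2f2 read 7.45, 7.45 and 7.51 in green arrays, 8.69, 8.52 and 8.19 in double-labelled arrays and 8.60, 8.30 and 8.23 in red arrays. All 3 green arrays were below the other 6, a pattern shown by 1.73% of all genes. Red cells were 0.90 above green cells (95% interval 0.49 to 1.32), and double-labelled cells 0.99 above them (0.58 to 1.41). Neither difference passed over all genes (adjusted p = 0.0846 and 0.396), and nor did the test for any difference among the 3 populations (adjusted p = 0.0922). Double-labelled and red cells differed by 0.09 (95% interval -0.33 to 0.50).

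The E18.5 call for Pou2f2 depended on the fit. With equal weights the adjusted p was 0.0125 for red against green and 0.0333 for double-labelled against green. Without the 2 arrays that stood apart the red-green difference was 0.79 (adjusted p = 0.0184), and for any difference among the 3 populations the adjusted p was 0.0125. The replicate number paired red with double-labelled arrays, and its pairing with green arrays was uneven. Deviations from group means in green replicates 1, 2 and 3 correlated with same-numbered red arrays at 0.46, 0.41 and 0.058. With same-numbered double-labelled arrays these correlations were 0.37, 0.41 and 0.047. With that number as a block, the adjusted p was 0.0162 for any difference and 0.0142 for red against green. Leaving out double-labelled replicate 1 alone gave 0.0448 for any difference, and on the E18.5 arrays alone the red-green difference had an adjusted p of 0.114. The red-green difference did not itself differ between stages (0.45, SE 0.23, adjusted p = 0.562). By mean signal the order was E18.5 double-labelled (8.46 ± 0.25, SD, n = 3), E18.5 red (8.38 ± 0.19), E14.5 red (7.81 ± 0.18), E18.5 green (7.47 ± 0.035) and E14.5 green (7.36 ± 0.19). The arrays of the first and second groups overlapped, as did those of the last 2, and levels set across stages carry the shift above.

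Markers of B lymphocytes, the other cells known for Pou2f2, were measured beside it. Of 6 listed genes 3 were tested (Cd79a, Pax5 and Blk), and 0 of 3 passed between colours at either stage. Their summed level was 7.22 to 7.62 in E18.5 red, 7.06 to 7.60 in double-labelled and 7.07 to 7.11 in green arrays, and 6.55 to 6.67 in E14.5 red against 6.52 to 6.55 in green arrays. These levels were higher in red arrays at E18.5, with no overlap with green. Array signals have no zero and the values used here carry no detection calls, so whether those markers were absent was not tested, nor was their part in the Pou2f2 difference.

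Pou4f1 did not separate the colours at either stage. It read 5.29, 5.38 and 5.57 in E14.5 green and 5.58, 5.32 and 5.29 in E14.5 red arrays. At E18.5 it read 6.07, 5.73 and 5.77 in green, 6.27, 5.77 and 5.66 in double-labelled and 6.29, 5.66 and 5.77 in red arrays. Replicate 1 was the highest in each E18.5 group. The red-green difference was -0.01 at E14.5 (95% interval -0.28 to 0.25) and 0.05 at E18.5 (-0.40 to 0.51).

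Of 11 other genes that mark the habenula, 9 were tested. Between red and green cells at E18.5, 2 of these 9 passed, beside 0.265% of all genes, and 7 did not. The 2 were higher in red: Chrnb3, a nicotinic receptor subunit, by 1.65 (adjusted p = 8.6e-05) and Nr4a2, a nuclear receptor, by 1.26 (adjusted p = 0.0186). Among the 7, differences ran from -0.52 for Wif1, whose red arrays were all below the green ones, to 0.23 for Chrnb4. Double-labelled cells had less Chrnb3 than red cells, by 1.64 (adjusted p = 1.2e-04). At E14.5 1 of 9 passed, Nhlh2, which was lower in red cells by 0.45 (adjusted p = 0.035), beside 10.2% of all genes. The summed level of the 9 was 9.98 to 10.5 in red and 9.95 to 10.2 in green arrays at E18.5, and 9.64 to 9.83 against 9.80 to 9.93 at E14.5. Of 4 tested sensory ganglion markers, a second setting of Pou4f1, 0 passed between red and green at E18.5 and 1 at E14.5 (Isl1, higher in red by 0.77, adjusted p = 0.00781).

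Pou6f1 read 6.49, 6.56 and 6.63 in E14.5 green and 6.11, 6.29 and 6.11 in E14.5 red arrays, without overlap. Red replicates 1 and 3 held the identical value, so the spread includes a repeated value. Among the E14.5 arrays 0.932% of genes had such a repeat. Pou6f1 fell from green to red cells by 0.39 (SE 0.091, adjusted p = 0.0111), or 1.31-fold. The call was lost with equal weights (adjusted p = 0.185), after quantile normalization (0.0641), and without green replicate 2 (0.0504), green replicate 3 (0.0745) or red replicate 1 (0.0547). At E18.5 it read 6.43, 6.44 and 6.44 in green, 6.82, 6.53 and 6.36 in double-labelled and 6.65, 6.46 and 6.17 in red arrays, which all overlapped. The red-green difference at E18.5 was -0.01 (95% interval -0.35 to 0.32).

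Between red and green cells at E14.5, 5 of the 7 genes passed, 1 higher in red (Pou2f2) and 4 lower (Pou3f2, Pou3f3, Pou3f4 and Pou6f1). Over all genes 10.2% passed in that comparison, 5.24% higher and 5% lower. Groups did not overlap for 1 gene higher in red and for 5 lower in red, Pou3f1 being the fifth, against 13.7% and 14.1% of all genes. The median difference was -0.39 over the 7 genes and 0.0024 over all genes. Leaving out each E14.5 array in turn, Pou3f2, Pou3f3 and Pou3f4 passed in 6 of 6 fits, with adjusted p no higher than 2.0e-05, 8.7e-04 and 2.5e-05.

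Between red and green cells at E18.5, 0 of 7 passed limma's test, beside 0.265% of all genes (44 genes, and 1026 reached an unadjusted p under 0.05). The arrays of the 2 colours did not overlap for Pou2f2 and, narrowly, Pou3f1, both higher in red, as for 6.14% of all genes. Among the 7, Pou3f2 was second in size, at 0.44 (95% interval -0.05 to 0.93, adjusted p = 0.787), and at 0.26 without red replicate 1. Between double-labelled and green cells 0 of 7 passed and 0% of all genes (0, with 519 at an unadjusted p under 0.05). With equal weights the number over all genes was 6, among them Pou2f2. Groups did not overlap for Pou2f2 alone, as for 4.17% of all genes. Between double-labelled and red cells 0 of 7 passed, beside 0.0481% of all genes, and the differences ran from -0.39 for Pou3f2 to 0.14 for Pou6f1. For any difference among the 3 populations 0 of 7 passed, beside 0.0962% of all genes.

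The red-green difference of the class III genes at E14.5 did not pass at E18.5, and the change between stages was itself tested. Double-labelled cells were collected apart at E18.5 only, so a colour may not hold like cells at both stages. The change (E18.5 minus E14.5) was 2.32 for Pou3f2 (SE 0.27, adjusted p = 5.8e-04), 1.29 for Pou3f4 (SE 0.22, adjusted p = 0.00889) and 1.15 for Pou3f3 (SE 0.22, adjusted p = 0.0163). Over the 7 genes 3 passed, all in the positive direction, against 1.18% of all genes, 0.601% positive and 0.583% negative. The other 4 genes did not pass: Pou3f1 at 0.51 (adjusted p = 0.628), Pou6f1 at 0.38 (0.528), Pou2f2 at 0.45 and Pou4f1 at 0.07 (0.988). Pou3f2 passed in 12 of 12 fits that left out 1 array. Pou3f4 missed without E18.5 green replicate 1 (adjusted p = 0.0543) or 2 (0.053), and Pou3f3 missed without E18.5 green replicate 1 (0.0883), green replicate 3 (0.0583) or red replicate 3 (0.0512).

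**Figure D2:**
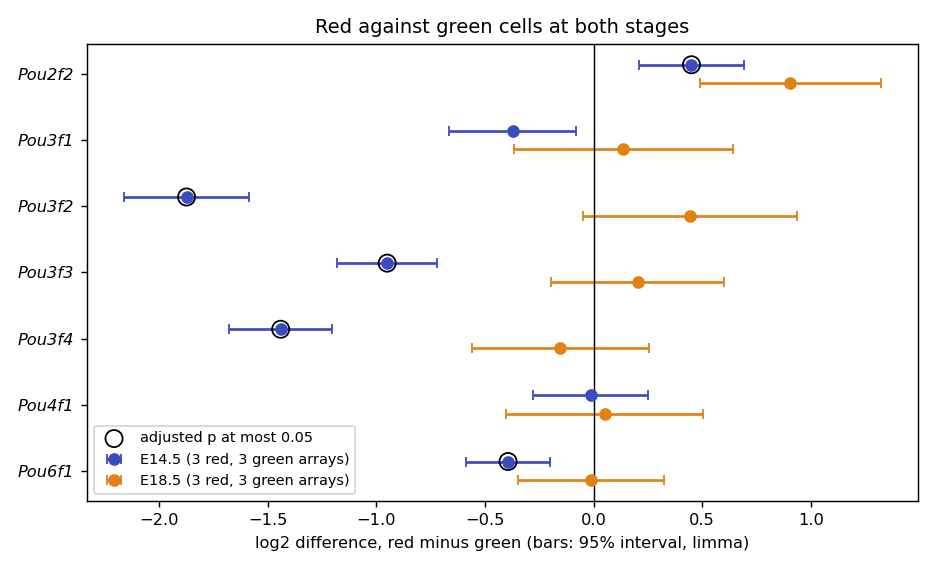
Log2 difference, red minus green cells (horizontal axis), for the 7 genes at E14.5 (blue) and E18.5 (orange), 3 arrays against 3 at each stage. Bars are 95% intervals from limma and black rings mark an adjusted p of at most 0.05. Pou3f2 (-1.87), Pou3f4 (-1.44) and Pou3f3 (-0.95) lie far to the left at E14.5, and their E18.5 intervals, around 0.44, -0.15 and 0.20, all include 0.

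In green cells these 3 genes also fell with stage. From E14.5 to E18.5 the deposited signal of Pou3f2 fell by 1.94 (adjusted p = 8.7e-07), that of Pou3f4 by 1.33 (4.9e-06) and that of Pou3f3 by 1.19 (1.1e-05), while the median over all genes was 0.61. Relative to that median the differences were -2.55, -1.94 and -1.80. These 3 passed as lower on the deposited scale, after quantile normalization and with each array centred on its median, and in 6 of 6 fits that left out 1 array. In green cells 4 of the 7 genes passed on the deposited scale, beside 75.3% of all genes, and 3 were lower, beside 2.49% of all genes. The fourth, Pou4f1, was higher by 0.44 (adjusted p = 0.0315), as were 72.8% of all genes. Relative to the median it was -0.16, and it turned to -0.20 after quantile normalization and -0.25 after centring. It also did not pass without E14.5 green replicate 1 (adjusted p = 0.0786) or 2 (0.0588), or E18.5 green replicate 1 (0.162) or 3 (0.0592).

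Red cells showed no such fall on the deposited scale. There Pou3f2 differed by 0.37 (adjusted p = 0.0871), Pou3f3 by -0.04 and Pou3f4 by -0.04. Relative to the median of all genes these were -0.22, -0.64 and -0.64, and Pou3f3 and Pou3f4 passed as lower after quantile normalization (-0.65, adjusted p = 0.00607, and -0.71, adjusted p = 0.00217) and after centring (-0.69 for both, adjusted p = 0.00252 and 0.00374). On the deposited scale 3 of 7 genes passed, all higher, beside 74.2% of all genes, 73.1% higher and 1.16% lower. They were Pou2f2 (0.57, adjusted p = 0.00507), Pou4f1 (0.51, 0.0164) and Pou3f1 (0.48, 0.0344). Relative to the all-gene median they were -0.02, -0.09 and -0.11. None of the 3 passed after quantile normalization (0.03, -0.14 and -0.20) or centring (-0.08, -0.14 and -0.17). Pou3f1 also missed without any 1 of the 6 red arrays (adjusted p from 0.0509 to 0.0958) and Pou4f1 without E18.5 red replicate 1 (0.123).

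In green cells Pou3f1 and Pou6f1 moved with the scaling too. They differed by -0.03 and -0.12 as deposited and passed as lower after quantile normalization (-0.66, adjusted p = 0.0129, and -0.76, 9.7e-04) and centring (-0.72, 0.011, and -0.82, 3.3e-04). Pou2f2 differed by 0.12 as deposited and by -0.58 after centring (adjusted p = 0.015). Its value after quantile normalization was -0.53 (adjusted p = 0.0827).

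**Figure D3:**
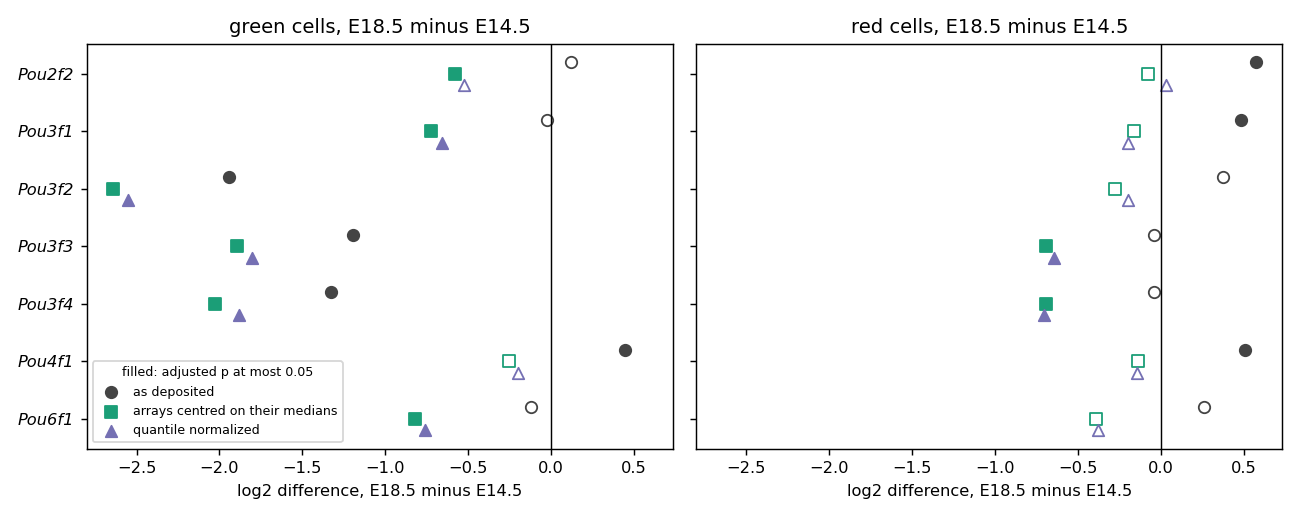
Log2 difference between stages, E18.5 minus E14.5 (horizontal axis), in green cells (left) and red cells (right), as deposited (circles), with arrays centred on their medians (squares) and quantile normalized (triangles). Filled symbols mark an adjusted p of at most 0.05. In green cells Pou3f2, Pou3f3 and Pou3f4 are filled and negative on all 3 scales, and the other genes shift with the scale.

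Genes of dividing and neural progenitor cells stood beside the class III genes at E14.5. Of 9 progenitor genes, 5 were lower in red than in green cells and 0 higher, beside 5% and 5.24% of all genes. Top2a, a topoisomerase of dividing cells, was lower by 1.89 (adjusted p = 1.6e-06) and Fabp7, a lipid-binding protein of radial glia, by 1.40 (0.00462). Mki67, a proliferation marker, was lower by 1.17 (5.2e-05). Nes, an intermediate filament of progenitors, was lower by 0.54 (7.9e-04) and Vim by 0.45 (0.0117). The progenitor factors Sox2 (0.20), Hes1 (0.23), Hes5 (0.05) and Pax6 (0.08) did not pass. The summed level of the 9 was 11.4 to 11.5 in green and 11.1 to 11.2 in red arrays at E14.5. At E18.5 the order of the summed level was the other way, at 11.6 to 11.9 in red and 11.1 to 11.3 in green arrays, with 10.9 to 11.3 in double-labelled arrays, and 0 of 9 passed between red and green. Such a sum gives most weight to strong genes, among them Sox2 (10.70 in red, 10.13 in green) and Fabp7 (9.72 and 8.65). The median red-green difference over the 9 genes was 0.16, and Nes (-0.18) and Hes5 (-0.10) were lower in red. In the difference between stages 2 of 9 passed, Mki67 and Top2a, beside 1.18% of all genes. In bulk samples fewer cells of a type and less RNA per cell cannot be told apart, and the part of progenitor cells in the class III difference was not tested.

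**Figure D4:**
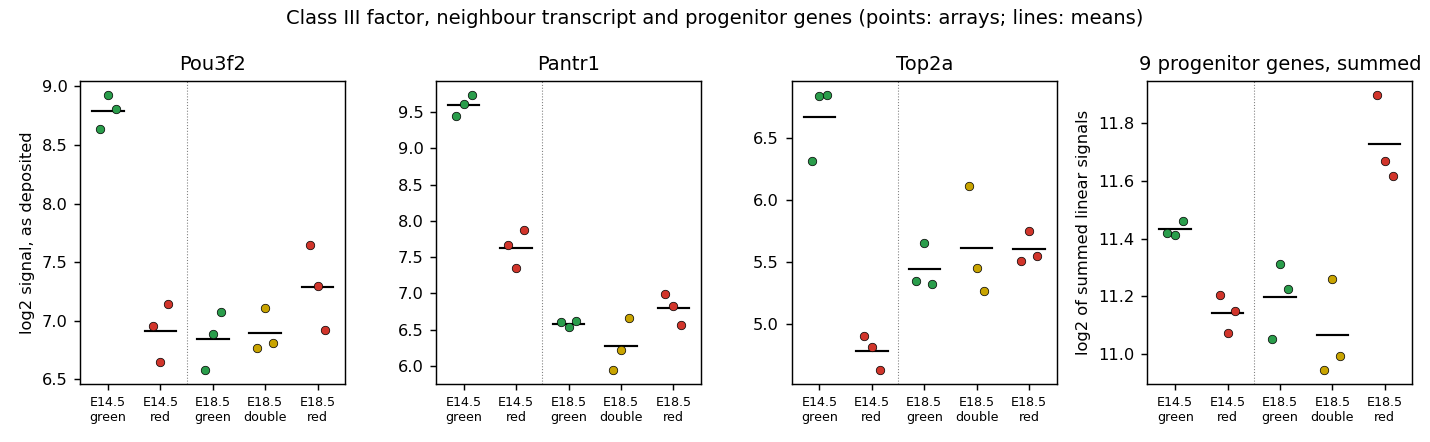
Log2 signal as deposited (vertical axes) of Pou3f2, of Pantr1, a non-coding gene near Pou3f3, and of Top2a, and the log2 summed signal of 9 progenitor genes, by stage and colour. Points are arrays and lines are means of 3. As deposited, Pou3f2, Pantr1 and Top2a are highest in the E14.5 green arrays, and the summed progenitor level in the E18.5 red arrays. Levels set across stages carry the stage shift. The mean summed level is 11.73 in E18.5 red and 11.43 in E14.5 green arrays. This gap is smaller than the all-gene median shift, 0.60 in red and 0.61 in green cells.

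Markers of other cell types were compared between the E14.5 colours, where 10.2% of all genes passed. Of 3 tested erythroid markers 2 were higher in red, Hbb-y by 1.46 (adjusted p = 5.7e-05) and Slc4a1, and their summed level was 7.14 to 7.73 in red and 6.54 to 6.58 in green arrays. Of 7 prethalamic and GABAergic genes 1 was higher in red, Gad2 by 0.82 (adjusted p = 1.5e-04), with summed levels of 8.65 to 8.94 in red and 8.62 to 8.65 in green arrays. Of 10 thalamus markers 3 were higher in red (Rora, Prox1 and Lef1) and 3 lower (Gbx2, Lhx2 and Lhx9). In the lists for microglia (7 tested), endothelium and pericytes (5), oligodendrocyte and Schwann lineage (5), meninges and choroid plexus (3) and cortical excitatory neurons (4), 0 genes passed between red and green at either stage. Whether these cells contributed to the POU gene differences was not tested.

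Among genes known as partners of POU factors, 6 were tested (Sox2, Sox4, Sox11, Hipk2, Isl1 and Zic1). Between red and green cells 1 of 6 passed at E14.5 (Isl1, above) and 0 of 6 at E18.5, beside 10.2% and 0.265% of all genes. In green cells from E14.5 to E18.5, Sox11, a Sox factor of young neurons, fell by 0.39 (adjusted p = 0.0106), Hipk2, a kinase, fell by 0.41 (0.00759) and Zic1 was higher by 0.39 (0.00873), which is -0.22 relative to the median of all genes. In red cells Sox2 and Zic1 were higher by 0.31 and 0.29 on the deposited scale, -0.29 and -0.30 relative to that median, and Isl1 was lower by 0.64 (adjusted p = 0.0254). Of 6 genes known as class III targets, 2 were lower in red cells at E14.5 (Nes and Fabp7, above), beside 5% of all genes. Dll1, higher in red by 0.27, did not pass (adjusted p = 0.0726), nor did the hypothalamic hormone genes Crh, Avp and Oxt. At E18.5 0 of 6 passed between red and green. Of 6 further POU genes 3 were tested (Pou4f3, Pou5f1 and Pou5f2), and 0 of 3 passed between colours at either stage.

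The genes most like Pou3f2 over the 15 arrays, after the mean of each stage was subtracted, were Prdm8 (Pearson r = 0.953), Btg2 (0.946), Barhl2 (0.944), Hmgb2 (0.943) and Pantr1 (0.943). Prdm8 encodes a PR-domain chromatin factor, Btg2 an antiproliferative protein of neurogenic progenitors, Barhl2 a homeodomain factor and Hmgb2 a chromatin protein. These correlations share arrays and are given as descriptions. The genes were chosen on the same arrays, so tests of them are not separate evidence. Pantr1, a long non-coding RNA, lies among the 3 RefSeq genes nearest to Pou3f3 on the chromosome. Its E14.5 green arrays read 9.45, 9.61 and 9.74, its E14.5 red arrays 7.66, 7.35 and 7.88 and its E18.5 green arrays 6.60, 6.53 and 6.62. It fell from green to red by 1.97 at E14.5 (SE 0.13, adjusted p = 4.1e-07) and fell by 3.02 in green cells from E14.5 to E18.5 (adjusted p = 1.6e-08). In red cells it fell by 0.84 between the stages (adjusted p = 0.00106) on the deposited scale.

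The genes most like Pou2f2 were Dlgap3 (Pearson r = 0.920), Frem2 (0.904), Eno2 (0.895), Ebf1 (0.889) and Vgf (0.882), again over 15 arrays after subtraction of stage means. They were chosen for that likeness on the same arrays. A red-green difference in the direction of Pou2f2 thus follows in part from the choice, and the tests are descriptions only. Of these, Vgf, a neuropeptide precursor, and Ebf1, a helix-loop-helix factor, were higher in red cells than in green at both stages, Vgf by 1.19 at E14.5 (adjusted p = 1.1e-05) and 1.42 at E18.5 (0.00668) and Ebf1 by 0.63 (0.00143) and 1.19 (0.0175). Dlgap3, a postsynaptic scaffold protein, was higher in red at E14.5 by 0.36 (adjusted p = 0.0444) and did not pass at E18.5 (0.43, adjusted p = 0.74). Frem2 and Eno2, the neuronal enolase, did not pass in either.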

How the data were processed

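The values deposited by the authors are log2 signals per transcript cluster. Per the labels, amplification started from 10 ng of sorted-cell RNA (Nugen Ovation Pico WTA System V2). Affymetrix Expression Console is named per the submitters' processing notes; its algorithm and version, and whether the stages were normalized together, are not given in the sources used here. No depth applies to array signals, and 3 arrays per group limit the precision.

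Of 33794 clusters, 23521 name 1 gene, 1814 several and 8459 none. By Entrez identifier 23328 of the 23521 matched RefSeq (GRCm38.p6), which changed 0 symbols. The cluster with the highest mean represented each of the 1082 genes with several. Genes in the lowest 25% by mean signal (below 5.07) were not tested.

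A group-means model was fitted in limma 3.58.1 (R 4.3.3). It had 1 array weight per stage (0.647 for E18.5, 1.92 for E14.5), so that spread could differ by stage. At E18.5 the red and double-labelled arrays correlated with their group mates at 0.919 to 0.955, and the green arrays at 0.982 to 0.985. The E14.5 arrays did so at 0.981 to 0.990. The lower E18.5 weight thus also fell on the green arrays, which were as alike as the E14.5 arrays. limma's moderated test was two-sided on 14.6 degrees of freedom, with Benjamini-Hochberg adjustment. The fit was tested on simulated data. Plots used matplotlib 3.10.9 (Python 3.11.15).

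Same-numbered arrays deviated together for E18.5 red and double-labelled cells (correlations 0.49 to 0.67), so those numbers were taken as pairs in the replicate block. The block was a fixed effect in comparisons within a stage. It was a random effect (consensus correlation 0.257) in comparisons between stages and in the difference between stages. The main fit had no block, so its double-labelled against red differences and intervals are unpaired. Replicate numbers come from the labels. The labels call the replicates biological without naming litters, so p measures the spread between these samples.

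Named were all 7 genes, members of the gene lists that passed or that check the tissue or another cell type, and the 5 genes most like each of the 2 POU genes with the widest range of E18.5 group means. Members and lists were chosen with earlier results of these data known. Alternatives were equal weights, quantile normalization, centring, no filter, the median cluster per gene, 1 stage alone, the replicate block, and leaving out arrays.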

Additional observations from a re-analysis of the deposited data

Results flagged for a closer look

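The red-green difference of 3 genes differed between E14.5 and E18.5 by the test of the difference itself (limma, 3 arrays in each of 4 groups). It changed by 2.32 for Pou3f2, 1.29 for Pou3f4 and 1.15 for Pou3f3 on the log2 scale. In each case the E14.5 green arrays were high. With double-labelled cells collected apart at E18.5 only and no gates given, whether each colour held like cells at both stages was not tested. Groups held 3 arrays, so single arrays far from their group were not tested.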

How the results depend on the processing

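The number of the 7 POU genes past the threshold depended on the array weights, through Pou2f2 and Pou6f1, and on single arrays, through each of the 7 genes in at least 1 comparison. With equal array weights it went from 0 to 1 at E18.5 for any difference and for green against either of the other populations (Pou2f2 in each), and from 5 to 3 for red against green at E14.5. Quantile normalization also left 3 at E14.5. Without the 2 E18.5 arrays that stood apart, 1 passed for red against green and 1 for any difference at E18.5. Leaving out 1 array at a time gave 3 to 5 genes for red against green at E14.5, 1 to 4 for red cells between stages, 1 to 3 for the difference between stages, 0 to 1 for any difference at E18.5, 3 to 4 for green cells between stages and 0 in the other 3 comparisons. Between stages, called differences turned sign in red cells for Pou3f1 (-0.20 by quantile normalization, -0.17 by centring), Pou4f1 (-0.14 by both) and Pou2f2 (-0.079 by centring), and in green cells for Pou4f1 (-0.20 and -0.25). Pou2f2 in green cells turned from 0.12 to -0.53 by quantile normalization and to -0.58, then past the threshold, by centring. In red cells 2 differences that passed on no scale also turned, Pou3f2 from 0.37 to -0.20 and -0.28 and Pou6f1 from 0.26 to -0.38 and -0.39; both scalings remove the stage shift by construction. No filter and the median cluster changed no POU gene call.

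For E18.5 double-labelled against red, where the numbers paired the arrays, the replicate block changed no POU gene call and took the genes called from 8 to 12. The other groups share only a number: as a hint from the data, every array correlated best with its own number at E14.5 but not in E18.5 red and green. There the replicate block took the POU genes called from 0 to 1 for red against green (Pou2f2, adjusted p = 0.0142) and for any difference at E18.5 (0.0162), and changed no other POU gene call. Over all genes it took the calls from 44 to 115 at E18.5 and from 1703 to 2715 at E14.5 for red against green, from 197 to 455 for the difference between stages, from 16 to 62 for any difference and from 0 to 3 for double-labelled against green.

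Other all-gene counts moved over 1.5 times. Red against green at E18.5 gave 102 genes with equal weights, 12 on that stage alone and 179 without the 2 arrays; at E14.5 it gave 586 with equal weights. Any difference gave 71, 28, 24, 6 and 158 with equal weights, quantile normalization, centring, that stage alone and without the 2 arrays. Double-labelled against red gave 15 with equal weights, 5 with no filter, 4 on that stage alone and 29 without the 2 arrays, double-labelled against green 6 with equal weights and 8 without the 2 arrays, and the difference between stages 450 without the 2 arrays. Between stages, red cells gave 4835 by quantile normalization (2350 higher) and 4192 by centring (1788 higher), against 12350 (12157 higher), and green cells gave 5895 (2741 higher) and 5791 (2264 higher), against 12521 (12106 higher). Leaving out 1 array at a time gave 7 (without E18.5 green replicate 1) to 31 genes for red against green at E18.5, 912 (without E14.5 green replicate 3) to 2405 (without E14.5 red replicate 3) at E14.5, 4 to 13 for double-labelled against red, 75 (without E18.5 green replicate 1) to 338 for the difference between stages and 7 to 71 (without double-labelled replicate 1) for any difference. The causes were not tested. With no detection calls, low signals (Pou4f1, Pou3f1) may lie near background.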
